A study of Mus musculus with 15 samples.

Results

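The genes described here drive DNA replication and cell division. The set was chosen by name: 36 genes of the cell cycle, each represented by the array probe set annotated with exactly that gene symbol, or by the brightest such probe set where there were several. Earlier results of these data were known when it was chosen, so the counts below are not an independent test. Of the 36, 35 were measured, among 19938 genes in all, and Ccnb1, which encodes cyclin B1, was not analysed here because no probe set carried exactly that symbol. They were measured in total RNA of whole thymus from female mice aged 5 weeks, on 1 array (Affymetrix Mouse Gene 1.0 ST) per mouse. The groups were NOD.LCMV mice given gp33 (n = 3), NOD.LCMV mice given a control peptide (n = 3), NOD.Ln82-LCMV mice given gp33 (n = 5) and NOD.Ln82-LCMV mice given control peptide (n = 4). Each mouse received 0.5 µg of peptide intravenously 2 h before the thymus was taken. The peptide gp33 comes from the glycoprotein of lymphocytic choriomeningitis virus and is presented to CD8 T cells by the class I molecule Db, to which the control peptide binds too. Both strains, the control mice included, carry NOD and LCMV in their names, and the labels describe neither the LCMV element nor the Ln82 segment. The study, by its title, concerned Nfkbid, a candidate at the diabetes locus Idd7 (chromosome 7), and the weak removal of CD8 T cells by the NOD thymus. No batch is named in the labels, but sample titles begin with AM_ in every NOD.LCMV mouse and in no NOD.Ln82-LCMV mouse. What this prefix stands for is not stated. Any batch aligned with strain cannot be told apart from it. Precision is limited by how few arrays each group has.

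A dividing cell first loads the MCM helicase onto replication origins. Cyclin E with CDK2, and the E2F transcription factors that the retinoblastoma proteins hold back, then start DNA synthesis, which needs a supply of deoxynucleotides. Cyclin A and cyclin B with CDK1 take the cell through G2 into mitosis, where the spindle checkpoint holds the anaphase-promoting complex (APC/C) in check until every chromosome is attached. In the thymus, division is concentrated in immature thymocytes, above all in those that have just passed selection for the pre-T-cell receptor and are becoming double-positive cells, while most double-positive and mature cells rest.

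Promoters of such genes are known to carry sites of E2F, of the CHR element (the cell cycle genes homology region, bound by MuvB complexes) and of the CCAAT box, bound by NF-Y. The promoter table held 31 of the 35 measured members, with 33 promoters between them. The 250 bases before the start were searched on both strands for E2F (TTTCCCGC, TTTGGCGC, TTTCGCGC or TTTGCCGC), CHR (TTTGAA) and CCAAT. E2F letters were present in 6 of the 33 member promoters (18.2%), against 1.86% of all 32851 promoters. CCAAT was present in 26 (78.8%, against 33.8% of all promoters) and CHR in 9 (27.3%, against 16%). The stretches below are shown for the pair of members that fell after gp33 (Ccne1 and Cdk2) and for 4 members that represent replication licensing, mitotic entry and the APC/C. They come from RefSeq with the build GRCm38.p6 and run 5′ to 3′ along the gene. Capitals mark the matches. The stretch of Mcm5 leaves out bases that lie within the annotated gene, among them 1 of its 2 CCAAT matches.
Ccne1, chr7:38107491-38107740, minus strand: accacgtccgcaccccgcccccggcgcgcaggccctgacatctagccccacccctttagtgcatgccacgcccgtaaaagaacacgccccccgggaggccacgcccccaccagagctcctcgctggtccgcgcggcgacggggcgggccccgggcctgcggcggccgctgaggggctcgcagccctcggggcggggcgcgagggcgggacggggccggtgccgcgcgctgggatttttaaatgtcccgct
Cdk2, chr10:128705052-128705301, minus strand: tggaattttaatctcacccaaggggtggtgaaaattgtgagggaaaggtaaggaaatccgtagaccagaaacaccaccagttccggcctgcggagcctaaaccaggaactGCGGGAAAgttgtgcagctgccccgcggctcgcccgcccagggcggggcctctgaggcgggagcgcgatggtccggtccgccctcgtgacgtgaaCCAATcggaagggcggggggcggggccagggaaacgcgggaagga
Mcm5, chr8:75109259-75109467, plus strand: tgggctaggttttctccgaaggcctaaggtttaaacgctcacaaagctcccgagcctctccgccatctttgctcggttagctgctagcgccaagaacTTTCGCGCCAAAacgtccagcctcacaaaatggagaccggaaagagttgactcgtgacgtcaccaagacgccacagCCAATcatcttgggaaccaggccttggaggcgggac
Cdk1, chr10:69352913-69353162, minus strand: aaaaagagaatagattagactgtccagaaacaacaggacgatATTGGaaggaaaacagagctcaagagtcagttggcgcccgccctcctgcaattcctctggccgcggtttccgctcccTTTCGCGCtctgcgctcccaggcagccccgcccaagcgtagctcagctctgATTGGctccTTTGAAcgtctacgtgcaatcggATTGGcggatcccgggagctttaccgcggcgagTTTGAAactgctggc
Ccnb2, chr9:70421555-70421804, minus strand: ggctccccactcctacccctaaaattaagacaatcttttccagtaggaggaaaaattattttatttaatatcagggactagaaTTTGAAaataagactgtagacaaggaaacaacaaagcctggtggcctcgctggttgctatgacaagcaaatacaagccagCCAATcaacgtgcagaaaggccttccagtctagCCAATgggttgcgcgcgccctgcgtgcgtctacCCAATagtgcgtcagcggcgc
Ube2c, chr2:164769679-164769928, plus strand: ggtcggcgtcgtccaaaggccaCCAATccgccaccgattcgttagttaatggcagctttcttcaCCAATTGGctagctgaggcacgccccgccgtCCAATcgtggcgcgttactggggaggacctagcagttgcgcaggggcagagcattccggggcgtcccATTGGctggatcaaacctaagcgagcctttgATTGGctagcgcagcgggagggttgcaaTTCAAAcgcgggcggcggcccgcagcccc
Ccne1 held none of the searched letters in this window, whereas Cdk2 held 1 E2F match, 140 bases before the start, and 1 CCAAT match. In Mcm5 the 2 E2F matches overlapped, on opposite strands. Cdk1 carried all 3 kinds, with CHR letters at 71 and 15 bases before the start. Ccnb2 carried 3 CCAAT boxes at 87, 54 and 21 bases, and Ube2c carried 6, of which 1 pair overlapped. A match of letters is a description of the sequence and was not set against binding data.

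The values analysed are log2 intensities after RMA, the authors' normalization, on which a difference of 1 is a doubling. All 35 members had mean values above the array medians, which lay between 7.59 and 7.67. Arrays of the same group correlated at 0.990 or more. The thymic markers Cd8a (group means 12.14 to 12.64) and Cd4 (11.77 to 12.34) were bright in all groups. In whole tissue, fewer cells of a dividing type and less RNA per cell cannot be told apart, which holds for every difference below.

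Cell cycle genes were lower in NOD.LCMV than in NOD.Ln82-LCMV thymus. Averaged over both peptides, 28 of the 35 members were lower in NOD.LCMV at an adjusted p under 0.05 and 0 were higher (limma with Benjamini-Hochberg adjustment over all genes). At an unadjusted p under 0.05 in limma, 30 of the 35 members differed, as did 7181 of all 19938 genes. Over all genes, 27.7% were called in the same comparison, 15.6% lower and 12.1% higher, and of the 6691 genes at least as bright as the dimmest member 28.5% were lower. That cut does not match the members in brightness, since their median lay at percentile 94.6 of all genes and their lowest at 66.5. The median difference of the members was −0.18 log2, against 0.00 for all genes. The shifts were small: the largest was that of Tk1, at 0.721-fold, and the others among the 28 lay between −0.38 and −0.09 log2. With both peptides separately, 32 of the 35 members were below 0. The members not called were Mcm4, Mcm6, Mcm7, Pcna, Rrm2, E2f2 and Top2a.

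The same shift appeared in each mouse. When each member was set against its own mean over the 15 arrays and the 35 members were averaged within an array, NOD.LCMV mice lay at −0.15, −0.15 and −0.11 with gp33 and at −0.08, −0.07 and −0.12 with the control peptide. NOD.Ln82-LCMV mice lay at 0.17, 0.06, 0.05, 0.06 and 0.05 with gp33 and at 0.01, 0.08, 0.11 and 0.09 with the control peptide. The strains did not overlap in this average, while within each strain the peptide groups did. For 12 of the 35 members (34.3%), every one of the 6 NOD.LCMV arrays lay below every one of the 9 NOD.Ln82-LCMV arrays, as did 4.03% of all genes. No member lay the other way round in all arrays, as 1.78% of all genes did. The 12 were Mcm3, Mcm5, Cdc6, Tyms, Rrm1, Tk1, Cdk2, Ccna2, Ccnb2, Bub1, Ube2c and Cenpe.

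**Figure D1:**
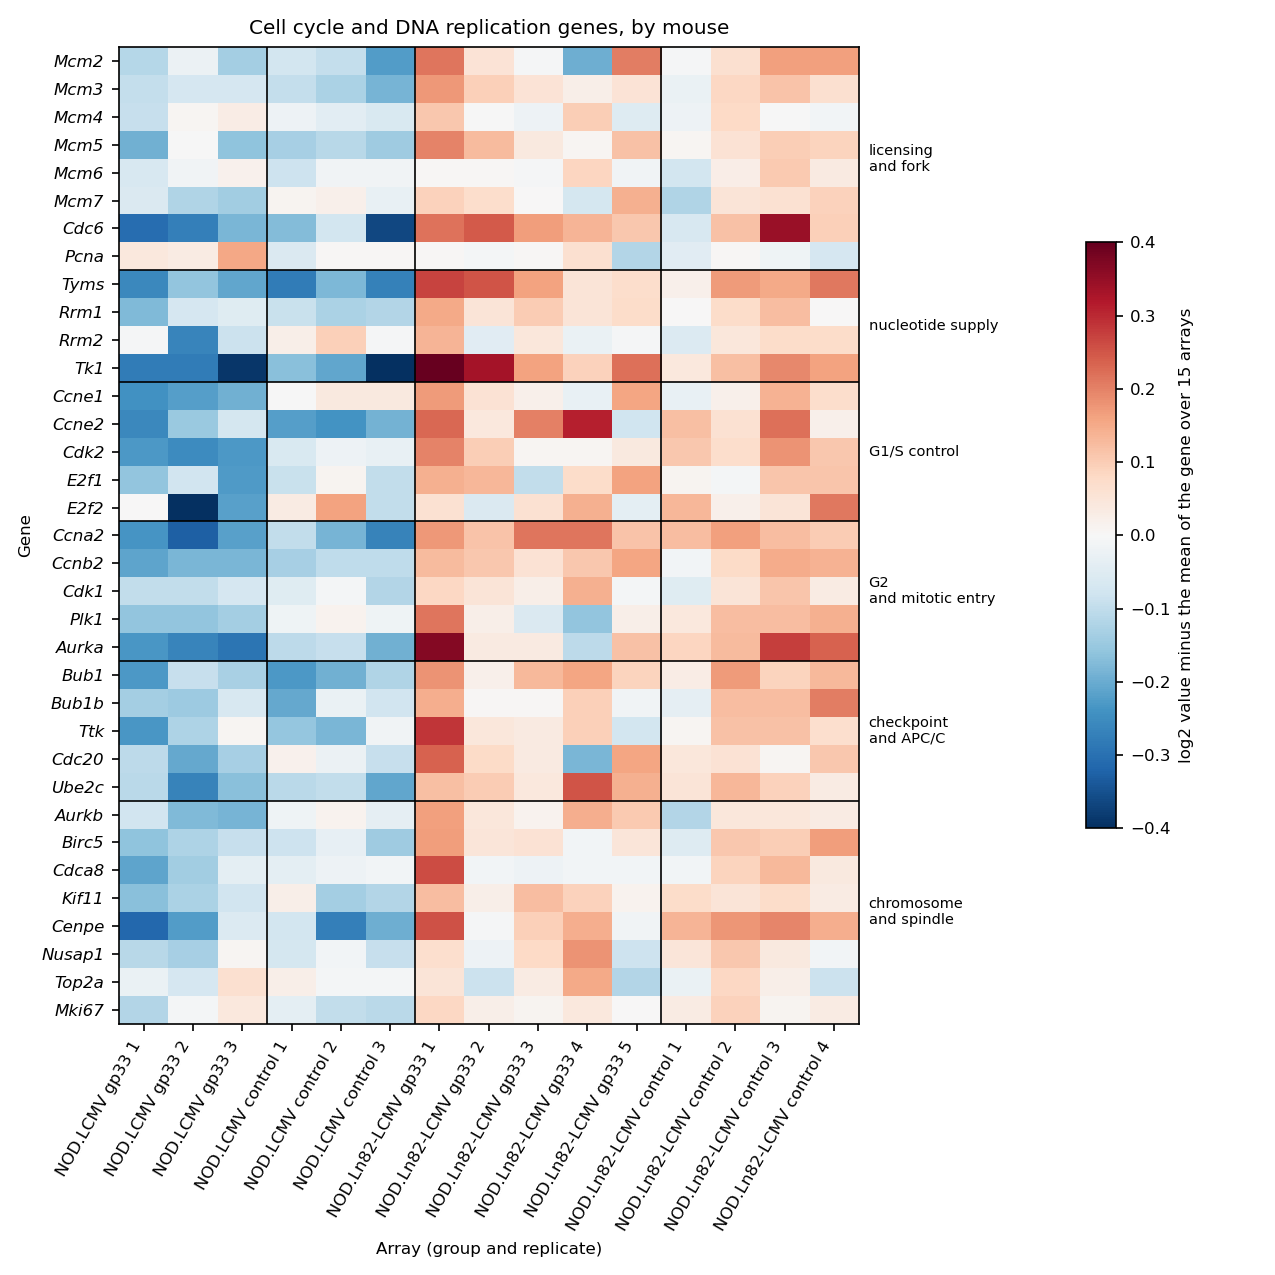
Log2 value of each of the 35 members in each of the 15 arrays, minus the mean of that gene over all arrays. Columns are mice in their 4 groups, rows are genes grouped by role, and values beyond ±0.4 are drawn at the limit of the colour scale. The 6 NOD.LCMV columns are mostly blue and the 9 NOD.Ln82-LCMV columns mostly red, with per-mouse averages of −0.15 to −0.07 and 0.01 to 0.17.

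Of the 4 genes that supply deoxynucleotides, 3 were lower in NOD.LCMV. Tk1 encodes the thymidine kinase of dividing cells. It stood at 9.76, 9.76 and 9.65 log2 in NOD.LCMV mice given gp33 and at 9.87, 9.83 and 9.64 with the control peptide. In NOD.Ln82-LCMV mice it stood at 10.44, 10.37, 10.20, 10.13 and 10.26 with gp33 and at 10.08, 10.16, 10.23 and 10.20 with the control peptide. The highest NOD.LCMV array was therefore below the lowest NOD.Ln82-LCMV array. The averaged difference was −0.47 ± 0.05 log2 (SE; limma adjusted p = 5.9e-06). A second probe set of Tk1, not used for the counts, gave −0.48 (limma adjusted p = 1.19e-05 over all probe sets).

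Tyms encodes thymidylate synthase, which makes the thymidine nucleotide de novo. It ranged from 10.76 to 10.88 (median 10.80) over the 6 NOD.LCMV arrays and from 11.06 to 11.31 (median 11.20) over the 9 NOD.Ln82-LCMV arrays, again without overlap. The difference was −0.38 log2 (limma adjusted p = 9.11e-06), with nearly the same size after gp33 (−0.37) and after the control peptide (−0.38). Rrm1 and Rrm2 encode the subunits of ribonucleotide reductase, which turns ribonucleotides into deoxynucleotides. Rrm1, the large subunit, ranged from 11.92 to 12.05 in NOD.LCMV and from 12.10 to 12.25 in NOD.Ln82-LCMV, and its difference of −0.17 ± 0.03 log2 passed the test (limma adjusted p = 0.000624). Rrm2, the small subunit, overlapped between the strains (11.40 to 11.76 in NOD.LCMV, 11.61 to 11.80 in NOD.Ln82-LCMV). Its difference of −0.07 did not pass, with an interval of −0.16 to 0.02, but after median centring of the arrays it was −0.12 and passed (limma adjusted p = 0.0451). After gp33 the differences were −0.18 for Rrm1, which passed, and −0.14 for Rrm2 (limma adjusted p = 0.0997).

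Of the 8 genes of replication licensing and the fork, 4 were lower in NOD.LCMV. Cdc6 encodes the protein that, with the origin recognition complex, loads the MCM helicase. It ranged from 8.84 to 9.13 (median 8.97) in NOD.LCMV and from 9.14 to 9.55 (median 9.34) in NOD.Ln82-LCMV. The difference was −0.38 ± 0.06 log2 (limma adjusted p = 0.000132), although the edges of the strains lay next to each other. Of the 6 genes of the MCM2-7 helicase, 3 were lower. Mcm5 was lower, at 0.868-fold its NOD.Ln82-LCMV level (limma adjusted p = 0.000634), Mcm3 was at 0.885-fold (0.000592) and Mcm2 at 0.878-fold (0.0235). Mcm4 and Mcm6 differed by −0.05 log2 each, with intervals of −0.12 to 0.02, and Mcm7 by −0.09, with an interval of −0.17 to −0.00. After median centring all 3 passed, Mcm4 and Mcm6 at −0.10 and Mcm7 at −0.14 (limma adjusted p = 0.037, 0.028 and 0.0102). Mcm2 lost its call when NOD.LCMV gp33 replicate 1 or 3 or NOD.LCMV control replicate 3 was left out (−0.22 to −0.16 over all arrays left out in turn). Pcna, the sliding clamp of the DNA polymerases, was the one member with a mean above that of NOD.Ln82-LCMV with both peptides. It ranged from 12.62 to 12.83 in NOD.LCMV and from 12.56 to 12.74 in NOD.Ln82-LCMV, a difference of 0.05 with an interval of −0.02 to 0.12. After a second quantile normalization that difference became 0.12 and passed the test (limma adjusted p = 0.00439).

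Cyclin E, its kinase and the E2F factors make up the G1/S group, of which 4 of 5 were lower. Ccne2, cyclin E2, was the furthest apart at −0.31 ± 0.06 log2 (limma adjusted p = 0.000574), with 9.59 to 9.78 in NOD.LCMV and 9.77 to 10.16 in NOD.Ln82-LCMV. Cdk2, the kinase partner of cyclin E, was lower, at 0.852-fold (limma adjusted p = 7.1e-05) without overlap of the strains. E2f1, an activator of replication genes, was lower, at 0.885-fold (limma adjusted p = 0.00609). E2f2, its close relative, gave −0.17 ± 0.06 log2 and did not pass (limma adjusted p = 0.0646). It also varied most within NOD.LCMV, from 9.80 to 10.42. Ccne1, cyclin E1, differed by −0.16 on average, and depended on the peptide as described below.

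All 5 measured genes of G2 and mitotic entry were lower in NOD.LCMV. Ccna2, cyclin A2, which serves both S phase and entry into mitosis, had the smallest adjusted p of all members. It ranged from 11.99 to 12.22 in NOD.LCMV and from 12.42 to 12.53 in NOD.Ln82-LCMV, a difference of −0.37 ± 0.03 log2 (limma adjusted p = 1.01e-06). Ccnb2, cyclin B2, followed at −0.25 ± 0.03 (limma adjusted p = 1.33e-05), with 12.23 to 12.34 in NOD.LCMV and 12.43 to 12.60 in NOD.Ln82-LCMV. Neither of these cyclins overlapped between the strains. Aurka, the Aurora kinase of centrosomes and spindle poles, was lower, at 0.794-fold (limma adjusted p = 0.000424), although the highest NOD.LCMV array (10.14) lay just above the lowest NOD.Ln82-LCMV array (10.13). Cdk1, the kinase that drives mitosis, was lower, at 0.92-fold (limma adjusted p = 0.0115) and lost its call after a second quantile normalization. Plk1, a kinase of mitotic entry and spindle assembly, was lower, at 0.909-fold (limma adjusted p = 0.0298). Its call was lost in 7 of the 15 fits that left out 1 array, namely NOD.LCMV gp33 replicates 1 and 2, NOD.LCMV control replicates 1 and 3, and replicates 2, 3 and 4 of the NOD.Ln82-LCMV controls (−0.16 to −0.11 over all 15), and after a second quantile normalization (limma adjusted p = 0.067).

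The checkpoint and APC/C group was lower in all of its 5 members. Bub1, a kinase of the spindle checkpoint, ranged from 10.97 to 11.11 in NOD.LCMV and from 11.22 to 11.38 in NOD.Ln82-LCMV (−0.28 ± 0.04 log2, limma adjusted p = 3.12e-05). Ube2c, the ubiquitin-conjugating enzyme of the APC/C, ranged from 11.09 to 11.26 in NOD.LCMV and from 11.39 to 11.61 in NOD.Ln82-LCMV (−0.26 ± 0.04, limma adjusted p = 6.88e-05). Both separated the strains in every mouse. Bub1b, which encodes the checkpoint protein BubR1, was lower, at 0.88-fold, and so was Ttk, the checkpoint kinase Mps1, at 0.874-fold (limma adjusted p = 0.00369 and 0.0111). Cdc20, the activator of the APC/C that the checkpoint holds, was lower, at 0.902-fold (limma adjusted p = 0.0409), and this call was lost in 12 of the 15 fits that left out 1 array. It was kept without replicate 1 of the NOD.LCMV controls, without replicate 3 of the NOD.Ln82-LCMV controls and without replicate 4 of the NOD.Ln82-LCMV mice given gp33.

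Of 8 genes of chromosome structure and the spindle, 7 were lower. Cenpe, the kinesin that links chromosomes to microtubules, had the largest difference of the group, −0.32 ± 0.05 log2 (limma adjusted p = 0.000173), with 9.89 to 10.15 in NOD.LCMV and 10.19 to 10.46 in NOD.Ln82-LCMV. The kinesin gene Kif11, whose motor pushes the spindle poles apart, was lower, at 0.891-fold (limma adjusted p = 0.00107). The members of the chromosomal passenger complex were Aurkb, its kinase (0.916-fold, limma adjusted p = 0.0137), Birc5, which encodes survivin (0.885-fold, 0.00225), and Cdca8, which encodes borealin (0.915-fold, 0.0453). Aurkb differed by −0.01 log2 after the control peptide (limma adjusted p = 0.926) and by −0.24 after gp33 (0.00167). The change of its strain difference with the peptide, −0.23, did not pass (limma adjusted p = 0.0636). The spindle gene Nusap1 (0.924-fold, 0.0468) and Mki67, which encodes the proliferation antigen Ki-67 (0.938-fold, 0.0315), differed least among those called. The calls of Cdca8, Nusap1 and Mki67 were lost in 9, 11 and 5 of the 15 fits that left out 1 array, in each case including those without NOD.LCMV gp33 replicate 1, NOD.LCMV control replicates 2 and 3, and replicate 2 of the NOD.Ln82-LCMV controls. After a second quantile normalization Mki67 was at −0.05 log2, against −0.09 as deposited, and lost its call (limma adjusted p = 0.23), as did Nusap1 (0.0544). Top2a, topoisomerase II alpha, differed by −0.01 log2, with an interval of −0.10 to 0.08. Its NOD.LCMV values of 11.97 to 12.10 lay inside its NOD.Ln82-LCMV values of 11.92 to 12.19.

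The strain difference was called for more members after gp33 than after the control peptide. After gp33, 23 of 35 members were lower in NOD.LCMV and 0 higher (median −0.20). Of all genes 27% were called there, 16.8% lower and 10.2% higher, and 28.5% of those at least as bright as the dimmest member were lower. After the control peptide, 14 members were lower and 0 higher (median −0.15), where 10.3% of all genes were called, 5.54% lower and 4.77% higher, and 13% of the bright ones were lower. At an unadjusted p under 0.05 in limma, 29 members differed after gp33 and 20 after the control peptide. Of all 19938 genes, 6980 and 4453 did. Both peptides gave a call for 13, which is 13 of 14 and 13 of 23. They were Mcm3, Mcm5, Cdc6, Tyms, Rrm1, Tk1, Ccne2, Ccna2, Ccnb2, Aurka, Bub1, Ube2c and Cenpe. The groups did not overlap for 20 members after gp33 (57.1%, against 16.3% of all genes) and for 19 after the control peptide (54.3%, against 9.36%). The control peptide count rested on single arrays: it was 6 without NOD.LCMV control replicate 3 and 7 without NOD.Ln82-LCMV control replicate 3. Tyms, Tk1, Ccna2, Ccnb2, Bub1 and Cenpe kept the call in every fit that left out 1 array. Of the 23 called after gp33, 16 did, and the others were Mcm3, Mcm7, Ccne2, E2f2, Cdk1, Cdc20 and Birc5. A call with gp33 alone, as for Mcm7, Ccne1, Cdk2, E2f1, E2f2, Cdk1, Cdc20, Aurkb, Birc5 and Kif11, does not show that the strain difference changed with the peptide. That change was tested directly and passed for Ccne1 alone.

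**Figure D2:**
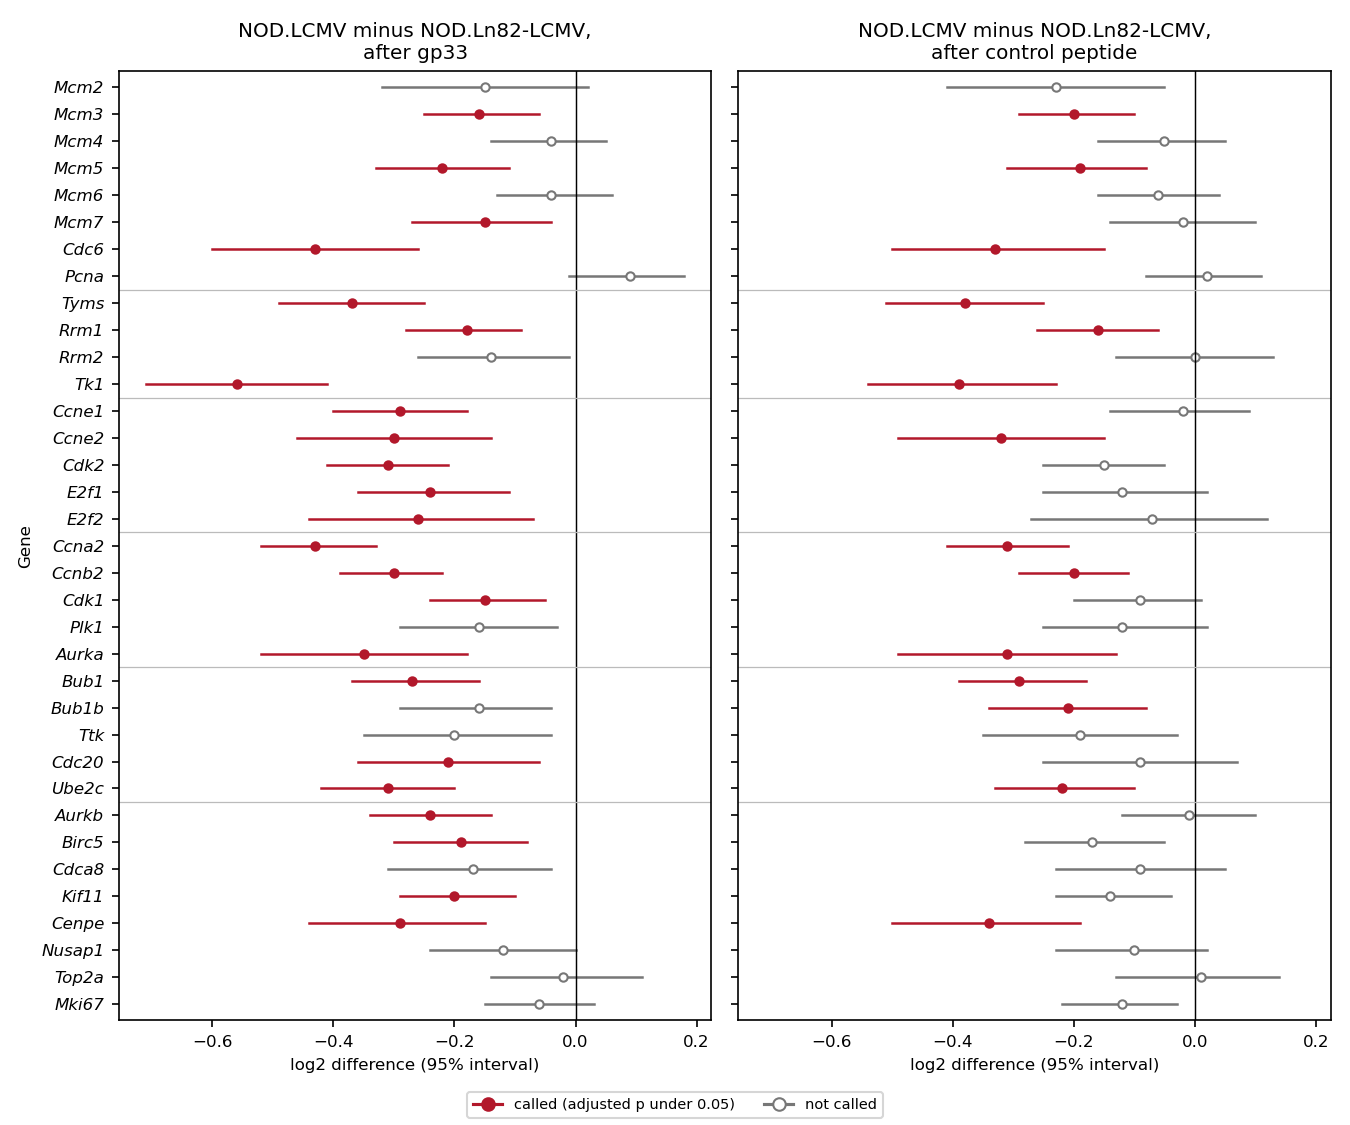
Log2 difference of NOD.LCMV minus NOD.Ln82-LCMV for each of the 35 members after gp33 (left) and after the control peptide (right), with 95% intervals from limma. Filled red points passed an adjusted p under 0.05 over all genes, 23 after gp33 and 14 after the control peptide, and all of them lie left of 0.

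**Figure D3:**
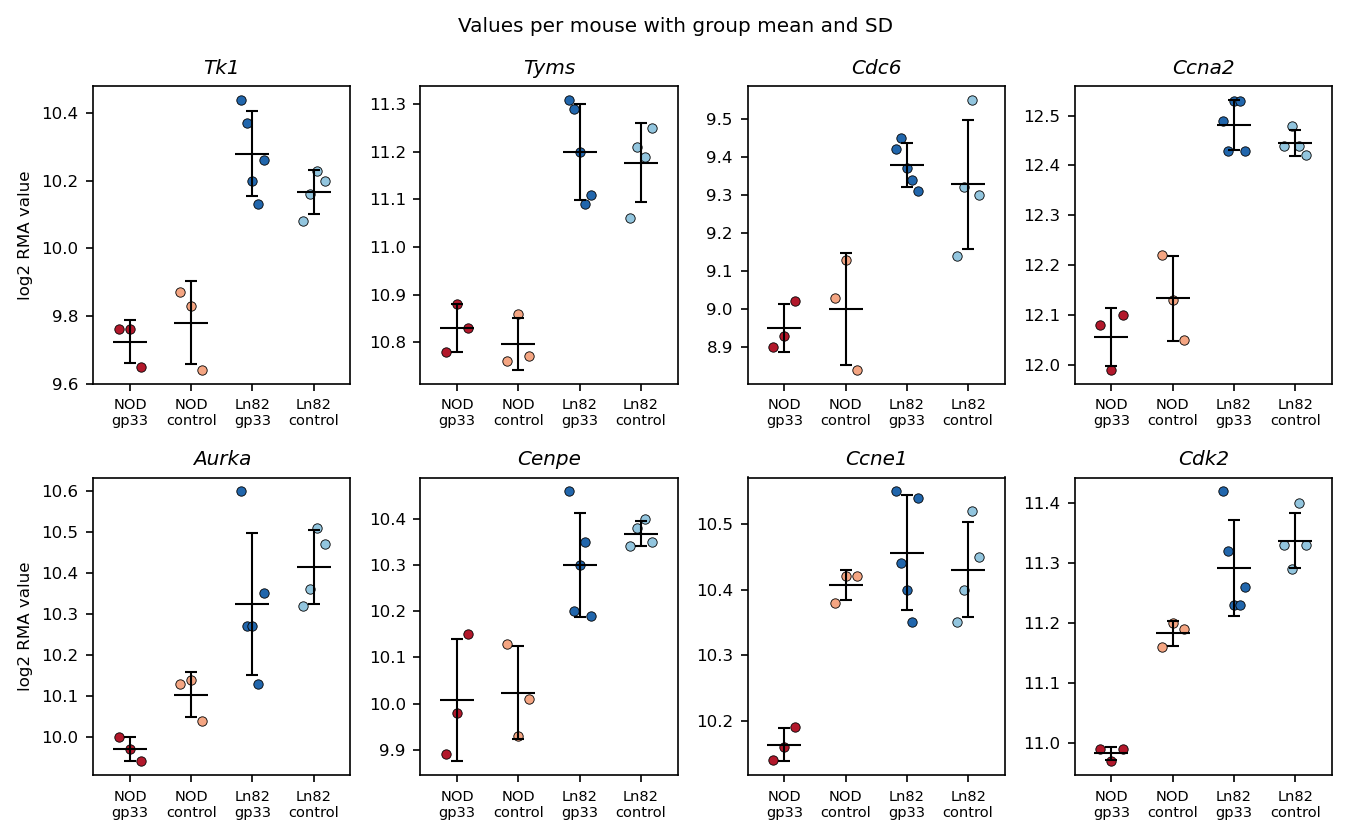
Log2 value of each mouse for 8 members, with the mean and SD of each group as bars. NOD stands for NOD.LCMV (n = 3 per peptide) and Ln82 for NOD.Ln82-LCMV (n = 5 with gp33, n = 4 with the control peptide). In Tk1, Tyms, Cdc6, Ccna2, Cenpe and Cdk2 all NOD.LCMV mice lie below all NOD.Ln82-LCMV mice. In Ccne1 the NOD.LCMV mice given gp33 lie alone, at 10.14 to 10.19.

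After gp33 in NOD.LCMV, the genes of the partners cyclin E1 and CDK2 fell. These 2 of the 35 members (5.71%) were the only calls at 2 h, and 0 rose. Of all genes 19.8% were called, 12.5% lower and 7.29% higher, so the members' share lay below that of all genes. The median of the members was −0.04 log2, against −0.03 for all genes. For 8 members (22.9%) all gp33 mice lay below all control mice, a share near the 22% of all genes. At an unadjusted p under 0.05 in limma, 5 of the 35 members differed, as did 5787 of all 19938 genes.

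Ccne1 stood at 10.14, 10.16 and 10.19 log2 in NOD.LCMV mice given gp33, against 10.38, 10.42 and 10.42 in NOD.LCMV mice given the control peptide. The groups lay well apart, and Ccne1 fell to 0.845-fold (−0.24 ± 0.06 log2, limma adjusted p = 0.00612). In NOD.Ln82-LCMV it stood at 10.55, 10.44, 10.40, 10.35 and 10.54 with gp33, against 10.35, 10.40, 10.52 and 10.45 with the control peptide, and these groups overlapped throughout. The strain difference of Ccne1 was −0.02 with the control peptide (interval −0.14 to 0.09), and with gp33 NOD.LCMV was lower, at 0.816-fold (limma adjusted p = 0.000453). Between NOD.LCMV and NOD.Ln82-LCMV the response of Ccne1 differed by −0.27 ± 0.07 log2 (limma adjusted p = 0.0328). In that comparison 8.73% of all genes were called, 4.26% lower and 4.46% higher, and no other member was, while 3 members had an unadjusted p under 0.05. That call was lost in 8 of the 15 fits that left out 1 array (without any 1 of NOD.LCMV gp33 replicates 1 and 2, the 3 NOD.LCMV controls, replicate 2 of the NOD.Ln82-LCMV mice given gp33, and replicates 1 and 2 of the NOD.Ln82-LCMV controls), at −0.30 to −0.24. It was also lost after a second quantile normalization (limma adjusted p = 0.051) and after centring arrays on their medians (0.0631).

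Cdk2 stood at 10.99, 10.97 and 10.99 in NOD.LCMV mice given gp33, against 11.16, 11.20 and 11.19 in NOD.LCMV mice given the control peptide. It fell by 0.20 log2 (0.871-fold, limma adjusted p = 0.0102). In NOD.Ln82-LCMV it stood at 11.42, 11.32, 11.23, 11.23 and 11.26 with gp33, against 11.33, 11.29, 11.40 and 11.33 with the control peptide, and all 6 NOD.LCMV values lay below all 9 of these. The responses differed by −0.15 log2, which did not pass (limma adjusted p = 0.184). For both genes the exact permutation p in NOD.LCMV was 0.1, two-sided, the smallest that 20 splits of 3 and 3 mice can give. The NOD.LCMV calls of both were kept in every fit that left out 1 array and under every other setting tried.

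The remaining members gave no call in NOD.LCMV. E2f2 had the largest difference among them (−0.26, interval −0.46 to −0.05, limma adjusted p = 0.0814) and the widest spread between gp33 mice, at 10.26, 9.80 and 10.04, against 10.29, 10.42 and 10.16 with the control peptide. Without gp33 replicate 1, the highest of the gp33 mice, E2f2 and Rrm2 passed as well, and 4 members fell. Aurkb gave −0.13 (limma adjusted p = 0.111) and Plk1 −0.14 (0.181). Plk1 passed when the NOD.LCMV groups were fitted alone (limma adjusted p = 0.0477). Ccne2, the second cyclin E, stood at 9.59, 9.70 and 9.78 with gp33, against 9.63, 9.61 and 9.66 with the control peptide, a difference of 0.06 with an interval of −0.13 to 0.24. Pcna gave 0.09, with an interval of −0.01 to 0.20.

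In NOD.Ln82-LCMV, 0 of 35 members were called in response to gp33, and 0 had an unadjusted p under 0.05 in limma. The median was 0.02 log2, and the values ran from −0.10 (Plk1) to 0.11 (Tk1). Over all genes, 0.00502% were called, which is 1 gene, and 1190 of 19938 had an unadjusted p under 0.05 in limma.

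**Figure D4:**
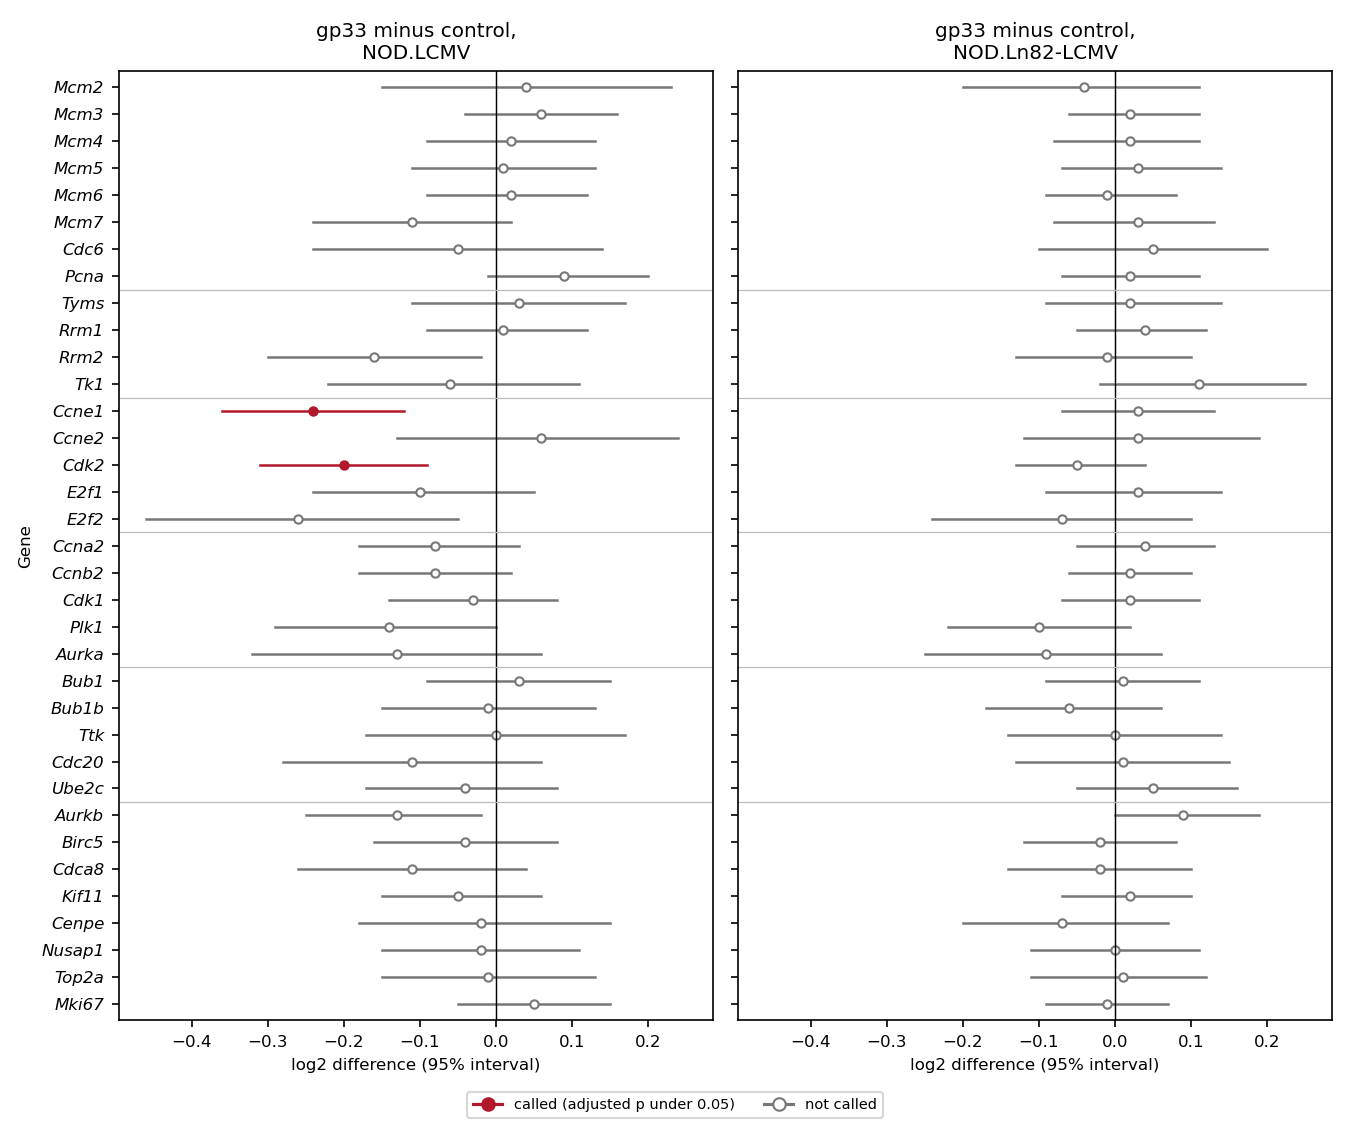
Log2 difference of gp33 minus control peptide for each member in NOD.LCMV (left) and NOD.Ln82-LCMV (right), with 95% intervals from limma. The only filled points, which passed an adjusted p under 0.05 over all genes, are Ccne1 and Cdk2 in NOD.LCMV at −0.24 and −0.20.

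Wider lists of replication and mitotic genes, none of them members, were counted in the same way. These lists too were chosen with earlier results of these data known. Of 46 measured origin and fork factors, 26 were lower and 1 was higher in NOD.LCMV averaged over the peptides (56.5% and 2.17%, median −0.17). The shares to read both lists against are 15.6% lower and 12.1% higher over all genes. Of genes at least as bright as the dimmest member, 28.5% were lower. Pole2, an accessory subunit of DNA polymerase epsilon, was lower by 0.56 log2 (−0.56 ± 0.04, limma adjusted p = 2.84e-07), with NOD.LCMV means of 9.50 with gp33 and 9.59 with the control peptide, against NOD.Ln82-LCMV means of 10.12 and 10.09. Prim2, a primase subunit (−0.31), Rfc4, of the clamp loader (−0.39), and Gins4 and Gins2, of the GINS complex of the replicative helicase (−0.30 and −0.31), were also lower. Of 56 measured mitotic genes, 47 differed at an unadjusted p under 0.05 in limma, against 7181 of all 19938 genes. After adjustment 46 were lower (82.1%) and 0 higher (median −0.20). They included Cdca3, which encodes a factor of mitotic entry (−0.57), Kif20a, a kinesin of cytokinesis (−0.44), and the small CDK partners Cks1b (−0.43) and Cks2 (−0.39). After gp33 in NOD.LCMV, 6 of the origin and fork factors fell (13%, near the 12.5% of all genes), among them Rpa1, of the single-strand binding protein (−0.30), and Gins3 (−0.22). Of the mitotic genes 7 fell, the same 12.5% as over all genes, among them Cdc25b and Cdc25c, phosphatases that activate CDK1 (−0.28 and −0.25). None of either list rose. The medians were −0.03 and −0.09.

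Cyclin D and its regulators act before the cyclin E step. Of 35 measured cyclin D genes, CDK inhibitors, pocket proteins and related growth regulators, 9 rose and 5 fell after gp33 in NOD.LCMV (25.7% and 14.3%, against 7.29% and 12.5% of all genes). Ccnd2, the D-type cyclin that carries growth signals to the pocket proteins, rose to a mean of 11.77 in NOD.LCMV with gp33, against 10.49 with the control peptide (1.29 ± 0.09 log2, limma adjusted p = 5.85e-08). In NOD.Ln82-LCMV its means were 10.37 with gp33 and 10.28 with the control peptide, and the responses differed by 1.19 ± 0.11 log2 (limma adjusted p = 6.79e-06). The growth regulator Myc (1.40), the kinase Pim1 (1.70) and the Polo-like kinases Plk2 (1.12) and Plk3 (1.23) also rose in NOD.LCMV. Rbl2, which encodes the pocket protein p130 that represses E2F targets in resting cells, fell by 0.61 log2. In the strain comparison averaged over peptides, Cdkn2c, which encodes the CDK inhibitor p18 (−0.55), and Skp2, which marks CDK inhibitors for destruction (−0.34), were lower in NOD.LCMV, and 9 of the 35 were higher and 6 lower (25.7% and 17.1%, against 12.1% and 15.6% of all genes). Pim1, Myc and Ccnd2 were among the higher ones, at 0.66, 0.64 and 0.80 log2. Their averages take in their rises after gp33 in NOD.LCMV. With the control peptide 1 of the 35 was higher and 3 were lower.

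**Figure D5:**
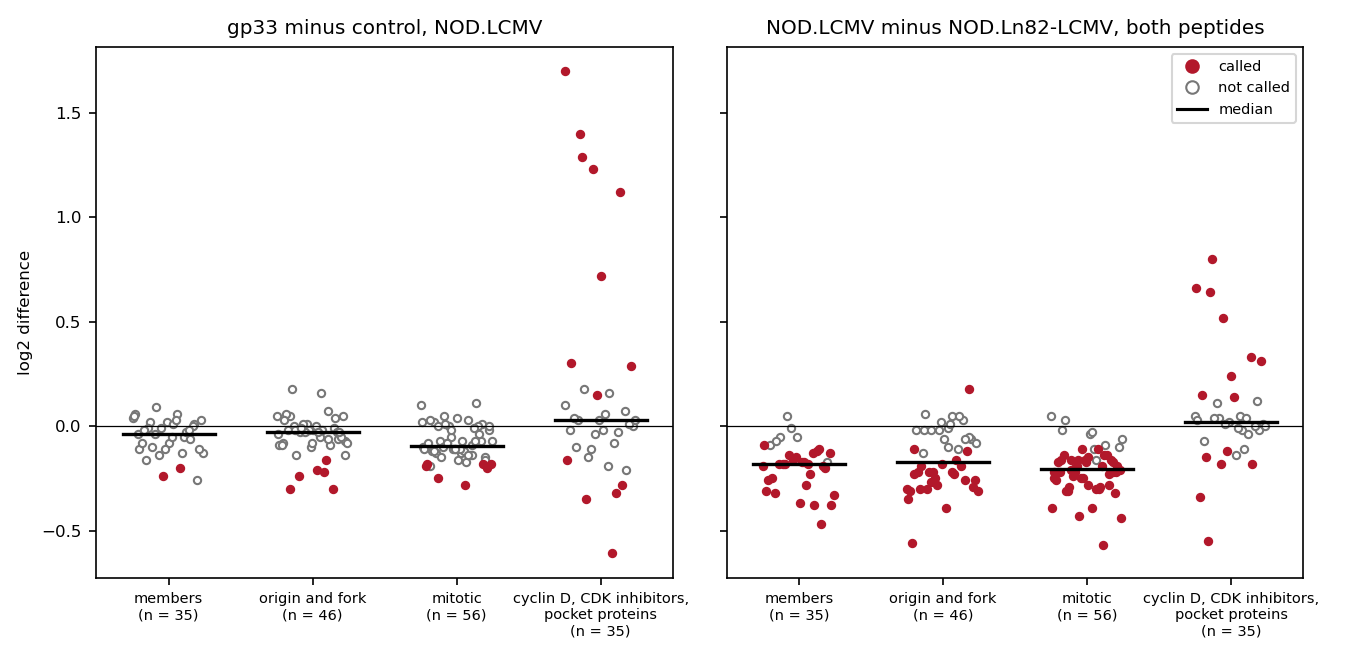
Log2 differences of single genes in the 35 members and in 3 wider lists, for gp33 minus control peptide in NOD.LCMV (left) and NOD.LCMV minus NOD.Ln82-LCMV over both peptides (right). The lists are 46 origin and fork factors, 56 mitotic genes, and 35 cyclin D genes, CDK inhibitors, pocket proteins and related growth regulators. Lines are list medians, which on the right lie at −0.18, −0.17, −0.20 and 0.02, and filled points passed an adjusted p under 0.05 over all genes.

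Because the locus in the title lies on chromosome 7, members on that chromosome were counted apart. Ccne1, Rrm1, Plk1 and Mki67 lie on chromosome 7, and each of the 4 was lower in NOD.LCMV averaged over peptides, against 15.6% of all genes. After the control peptide 1 of the 4 was lower (5.54% of all genes), and after gp33 2 were (16.8% of all genes). Off chromosome 7, 24 of 31 members were lower averaged over peptides, where 15.9% of all genes off that chromosome, the members included, were. The per-mouse averages of the 31 ran from −0.15 to −0.07 in NOD.LCMV and from 0.01 to 0.17 in NOD.Ln82-LCMV.

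Markers of several other cell types differed between the strains along with the cell cycle genes, and their part in that difference was not tested. The shares of all genes to read them against are 15.6% lower and 12.1% higher averaged over peptides, 16.8% and 10.2% after gp33, and 5.54% and 4.77% after the control peptide. Averaged over peptides, 5 of 9 B-cell markers were lower in NOD.LCMV and 0 higher, with Cd79a at −1.06 and Cd79b at −1.01 log2. After gp33 5 of the 9 were lower, and after the control peptide 1 was. The average of that list ranged from −0.71 to 0.13 in NOD.LCMV and from −0.39 to 0.61 in NOD.Ln82-LCMV.

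Of 13 dendritic cell and macrophage markers 5 were lower averaged over peptides, 7 after gp33 and 1 after the control peptide, with list averages of −0.27 to −0.01 in NOD.LCMV and −0.08 to 0.20 in NOD.Ln82-LCMV. Of 13 markers of thymic epithelium 6 were lower averaged over peptides, 7 after gp33 and 1 after the control peptide, with list averages of −0.21 to −0.04 in NOD.LCMV and −0.19 to 0.24 in NOD.Ln82-LCMV. None of either list was higher. Of 8 listed red cell markers 3 were measured, and Alas2 alone was lower (−0.91), while the others differed by −0.10 and −0.07. List averages, which rest mostly on Alas2, were −0.35 to −0.14 in NOD.LCMV and 0.02 to 0.44 in NOD.Ln82-LCMV. Of 9 endothelial markers 4 were lower and 0 higher after gp33, whereas 0 were lower and 2 higher after the control peptide, and averaged over peptides 2 were lower. Of 8 fibroblast and 9 adipocyte markers, 2 (25%) and 1 (11.1%) were lower averaged over peptides and 0 higher, and after the control peptide 0 of either list were called.

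Granulocyte markers were higher in NOD.LCMV, 7 of 11 averaged over peptides, 6 after gp33 and 2 after the control peptide. They also rose with gp33 in NOD.LCMV, where 6 of 11 were called (median 0.38), against 7.29% of all genes called higher. Their list average there was 0.43 to 0.78 with gp33, against −0.13 to 0.06 with the control peptide. In NOD.Ln82-LCMV 0 of 11 were called, with averages of −0.23 to 0.09 with gp33, against −0.40 to −0.14 with the control peptide. The response was higher in NOD.LCMV than in NOD.Ln82-LCMV for 5 of the 11, against 4.46% of all genes. Their part in the fall of Ccne1 and Cdk2, in the same mice, was not tested.

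Markers of thymocyte stages were called in both directions between the strains when averaged over peptides, where 15.6% of all genes were lower and 12.1% higher. Of 14 early double-negative markers, 3 were lower and 2 higher in NOD.LCMV (21.4% and 14.3%), with list averages of −0.26 to 0.15 in NOD.LCMV and −0.14 to 0.10 in NOD.Ln82-LCMV. Ptcra, which encodes the pre-T-cell receptor alpha chain, was lower (−0.63, limma adjusted p = 0.00293), and Il2ra, the high-affinity interleukin-2 receptor chain, was higher (0.55). The average for Il2ra takes in its rise of 1.67 log2 after gp33 in NOD.LCMV. After gp33 4 of the 14 were lower and 3 higher, and after the control peptide 0 were lower and 0 higher. Of 17 double-positive markers, 4 were lower and 2 higher (23.5% and 11.8%, list median −0.04). The lower ones were Rag2, of the receptor gene recombinase (−0.71), Aqp11 (−0.63), Cd4 (−0.37) and Dntt, the terminal transferase (−0.36), and the higher ones were Lef1, a transcription factor of T-cell development (0.42), and the chromatin organiser Satb1 (0.25). List averages of the double-positive markers overlapped widely, at −0.46 to 0.14 in NOD.LCMV and −0.16 to 0.20 in NOD.Ln82-LCMV. After gp33 7 of the 17 were lower and 2 higher, and after the control peptide 0 were lower and 2 higher. Of 14 mature single-positive markers, 2 were lower and 1 higher (14.3% and 7.14%).

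After gp33 in NOD.LCMV, where 12.5% of all genes fell and 7.29% rose, 8 of the 17 double-positive markers fell and 1 rose (median −0.36), and 5 of the 14 mature markers fell and 0 rose (median −0.22). Of the early double-negative markers 1 fell and 4 rose, Il2ra by 1.67 log2. The part of these shifts in the fall of Ccne1 and Cdk2 was not tested.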

How the data were processed

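Per the submitters' processing notes, the arrays were processed with RMA in Affymetrix Expression Console 1.1, and the authors deposited log2 values with 2 decimals. No further normalization was applied. Per the labels' protocols, 250 ng of total RNA entered each labelling reaction. Of 35556 probe sets, 21789 carried exactly 1 gene symbol in the platform annotation, 1621 several (left out) and 12146 none here. A gene was represented by its brightest such probe set, which left 19938 genes. The 15 arrays were fitted together in limma 3.58.1 under R 4.3.3, with 1 mean for each group, 11 residual and 14.9 total degrees of freedom, two-sided tests and Benjamini-Hochberg adjustment over all genes. A gene was called at an adjusted p under 0.05. Errors of differences are standard errors and intervals 95%. The model was tested on simulated data. Genes of the other lists were named if they were among the 6 with the smallest adjusted p in a comparison. The members and lists were chosen with earlier results of these data known. Alternatives were 2 other scalings, a filter on dim genes, probe set means, weighted arrays, a variance trend, fits of the compared groups alone, a replicate block and leaving out each array. The 4 replicate numbers that both NOD.Ln82-LCMV groups share were not treated as pairs in the main fit. Deviations of same-numbered arrays correlated at 0.12, 0.01, −0.05 and −0.23, which cannot exclude a pairing of the mice.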

Additional observations from a re-analysis of the deposited data

Results flagged for a closer look

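Dixon's test of the highest and lowest array was run on 70 groups of 4 or 5 mice, and 3 stood out, where chance gives about 1 in 20. Cdca8 in NOD.Ln82-LCMV gp33 replicate 1 was 10.39 log2, while the other 4 mice lay between 10.11 and 10.12. Aurkb in NOD.Ln82-LCMV control replicate 1 was 11.66, while the other 3 lay between 11.81 and 11.82. Mcm6 in NOD.Ln82-LCMV gp33 replicate 4 was 11.54, while the other 4 lay between 11.44 and 11.46. The response of Ccne1 to gp33 differed between NOD.LCMV and NOD.Ln82-LCMV by −0.27 log2 in the test of the difference itself (limma adjusted p = 0.0328), with the limits given above.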

How the results depend on the processing

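No member called in any comparison changed direction under any alternative. Of the 28 members lower in NOD.LCMV averaged over peptides, 21 kept the call under all alternatives. Those that lost it under at least 1 were Mcm2, Cdk1, Plk1, Cdc20, Cdca8, Nusap1 and Mki67, and the cause was not tested. With 1 array left out, the counts of lower members were 22 to 27 averaged over peptides, 18 to 25 after gp33 and 6 to 16 after the control peptide. They were 2 to 4 for the gp33 response in NOD.LCMV (4 without NOD.LCMV gp33 replicate 1), 0 in NOD.Ln82-LCMV, and 0 to 1 for the difference between the responses. Members' medians ran from −0.18 to −0.16, −0.22 to −0.17, −0.16 to −0.13, −0.07 to −0.02, −0.01 to 0.02 and −0.06 to −0.01 in the same order. For the difference between the responses, 0 members were lower after a second quantile normalization or median centring, and 2 with a variance trend, with Aurkb beside Ccne1. After a second quantile normalization 1 member, Pcna, was higher in NOD.LCMV after gp33 (0.16 log2) and averaged (0.12). Median centring moved the members' medians to −0.22 after the control peptide, −0.24 after gp33 and −0.23 averaged. With the replicate number as a block in NOD.Ln82-LCMV, 0 members were called and the median was 0.02. Array weights ran from 0.282 to 2.76. Dim probe sets set no limit here, as every member lay above the array medians.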

Other observations

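Genes of the DNA damage checkpoint and p53 targets, which are wired to the cell cycle but are no members, split in both directions between the strains. Of 19 measured, 6 were lower and 5 higher in NOD.LCMV averaged over peptides (31.6% and 26.3%, against 15.6% and 12.1% of all genes). Chek2, a checkpoint kinase for double-strand breaks, was lower by 0.60 log2 (−0.60 ± 0.07, limma adjusted p = 9.14e-06), and Chek1, the kinase of replication stress, by 0.29 (−0.29 ± 0.04, limma adjusted p = 0.00013). Atr, the kinase that activates the Chek1 product, was higher (0.30 ± 0.05, limma adjusted p = 0.000171). After gp33 in NOD.LCMV, 3 of the 19 fell and 3 rose (15.8% each, against 12.5% and 7.29% of all genes). Chek2 fell to a mean of 7.87 with gp33, against 8.29 with the control peptide (limma adjusted p = 0.00914), and the stress gene Sesn1 fell by 0.50 log2. Pmaip1, which encodes the killer protein Noxa, rose by 0.61 log2 and the death receptor gene Fas by 0.37. In NOD.Ln82-LCMV, 0 of the 19 were called in limma, and 1 had an unadjusted p under 0.05, as had 1190 of all 19938 genes.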
